A study of Mus musculus with 180 samples.

Results

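Spi1, Cebpa, Cebpb, Cebpe, Gfi1, Gfi1b, Irf8, Runx1, Zfpm1 and Nfe2 are 10 genes for transcription factors of blood cells, and their levels were followed in single mouse cells. They were chosen by name for their known parts in the myeloid and erythroid fates and are 10 of the 14825 genes listed. Of these 9 were found under their own symbol and Spi1 under its older symbol Sfpi1. Each of the 180 cells was sequenced as its own library, and its values are in TPM, a unit scaled for transcript length and for the total of the cell, so that genes can be set side by side. A gene is called detected in a cell where its TPM was 1 or more.

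The study asked what enforced Hoxb5 expression does to multipotent progenitors (MPP). The 47 CD11b+CD48+SK cells (Sca1+c-kit+, called SK cells here) were GFP+ donor-derived cells taken from primary recipients 8 weeks after transplantation. Their donors were Mx1cre/Rosa LSL-Hoxb5-EGFP/+ mice, whose MPP were placed in lethally irradiated CD45.1+ recipients given pIpC, the agent that switches on the Mx1 promoter driving Cre. The 41 WT-MPP (Lin-CD48-Sca1+c-kit+CD150-CD135+) and the 36 adult bone marrow haematopoietic stem cells (BM HSC) came from untransplanted Rosa LSL-Hoxb5-EGFP/+ mice, 8 weeks old, in which no Cre opens the Hoxb5 cassette, and the gate of the BM HSC is not given in the sources used here. The 56 fetal liver HSC (FL HSC) came from embryos of the same genotype at E14.5 and were sorted by CD11b and CD150 among Lin-Sca1+c-kit+ cells of CD45.2+ type, and all mice were C57BL/6. Transplantation, irradiation, pIpC and Hoxb5 all set the SK cells apart from the other cells, no transplanted MPP without Hoxb5 are among the cells analysed here, and the effects of these conditions cannot be told apart. FL HSC in turn differ from adult HSC in age and organ. The source label reads bone marrow for all cells, and the populations were taken from the titles. The labels name no animal, each population therefore stands for 1 sample, no test between populations was possible, and no p-value is given. Shares of cells carry an exact Clopper-Pearson 95% interval, and a share of 0 carries in its place an upper limit of 3 cells of the total. Both cover the counting of cells only.

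Blood cell fate is set by a small number of transcription factors that act in combination and often oppose each other. Spi1 (PU.1), the C/EBP family, Gfi1 and Irf8 act in granulocytes, monocytes and dendritic cells, while Gfi1b, Nfe2 and Zfpm1 (FOG-1, the partner of GATA1) act in red cells and platelets. Runx1 is needed for the first blood stem cells of the embryo and acts in several lineages afterwards, and stem and progenitor cells can hold low amounts of factors of more than one fate.

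Genes detected per cell had a median of 5206.5 in FL HSC, 4514 in SK cells, 4441.5 in BM HSC and 3844 in WT-MPP. Read counts cannot be had from TPM, the depth of each cell is unknown, and a member listed at 0 in a cell may have been missed there. Of the transcripts of sort markers, Cd48 was in 100% of SK cells, 17.1% of WT-MPP and 2.78% of BM HSC, Itgam (CD11b) in 36.2% of SK cells, 16.1% of FL HSC, 4.88% of WT-MPP and 2.78% of BM HSC, Slamf1 (CD150) in 63.9% of BM HSC, 55.4% of FL HSC and 7.32% of WT-MPP, and Flt3 (CD135) in 75.6% of WT-MPP. Hoxb5 was detected in 57.1% of FL HSC, 91.5% of SK cells, 22.2% of BM HSC and 17.1% of WT-MPP.

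Gfi1 and its paralogue Gfi1b, which share a DNA-binding zinc finger domain and a repressive SNAG domain, ranked the populations in opposite orders. Their starts of transcription are shown with that of Irf8 because these 3 genes carry the patterns described below. Each line is the 250 bases before a start site listed by RefSeq (GRCm38.p6), 5′ to 3′ on the strand of the gene. Capitals mark the letters TTNNNCAA, a loose C/EBP pattern, found on either strand. Gfi1 lies on the minus strand and the bases shown are chr5:107725806-107726055. Gfi1b is also on the minus strand, at chr2:28621983-28622232, and Irf8 is on the plus strand, at chr8:120736108-120736357.
Gfi1: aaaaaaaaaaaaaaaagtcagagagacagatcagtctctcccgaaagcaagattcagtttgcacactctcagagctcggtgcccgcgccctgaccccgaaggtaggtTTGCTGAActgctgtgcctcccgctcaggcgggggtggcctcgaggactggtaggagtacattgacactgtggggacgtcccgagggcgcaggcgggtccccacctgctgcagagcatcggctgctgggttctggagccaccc
Gfi1b: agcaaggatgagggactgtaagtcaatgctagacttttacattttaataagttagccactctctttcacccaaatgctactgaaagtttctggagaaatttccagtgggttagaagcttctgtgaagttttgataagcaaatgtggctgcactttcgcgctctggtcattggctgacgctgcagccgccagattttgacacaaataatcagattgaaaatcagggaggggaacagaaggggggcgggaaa
Irf8: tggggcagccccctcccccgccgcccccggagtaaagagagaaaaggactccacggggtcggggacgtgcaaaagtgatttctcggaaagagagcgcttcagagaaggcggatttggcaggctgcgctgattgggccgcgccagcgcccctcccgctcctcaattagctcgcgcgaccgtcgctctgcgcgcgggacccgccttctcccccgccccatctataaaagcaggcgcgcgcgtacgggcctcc

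The C/EBP pattern stood once before this start of Gfi1, on the minus strand of the window with its first base 143 bases before the start, and in none of the other 2 windows shown. RefSeq lists a second start for Gfi1 and for Irf8, and there the pattern was before Irf8 and not before Gfi1, so these genes are not told apart by it. It was in 33.3% of all 32851 promoter windows of this length, beside which 1 of 3 is no excess. The letters GAGGAA, a PU.1 core found in 23.3% of all windows, were in none of these 3 on either strand. Nor were AAATCNNA, a GFI1 pattern held by 11.5% of windows, or TGANTCA, an NF-E2 pattern held by 6.75%. A match is a run of letters and not a shown site. Promoters were listed for 7 of the 10 members, and those of Spi1, Cebpe and Nfe2 were not used here.

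Gfi1, a repressor needed for neutrophils and for stem cell quiescence, was highest in FL HSC and lowest in BM HSC. In FL HSC its TPM ran from 0 through a median of 118 to 607, and 48 of 56 cells had it (85.7%, 73.8 to 93.6%). In SK cells the median was 1.78 and the highest value 285, detected in 24 of 47 cells (51.1%, 36.1 to 65.9%). The WT-MPP values had a median of 0.232 and reached 440, detected in 10 of 41 cells (24.4%, 12.4 to 40.3%). BM HSC had a median of 0 and a highest value of 117, detected in 5 of 36 cells (13.9%, 4.67 to 29.5%). The interval of FL HSC lay above those of the other 3 populations, the interval of SK cells lay above that of BM HSC, and WT-MPP overlapped both of these. In mean log2(TPM+1) FL HSC exceeded BM HSC by 5.25 and WT-MPP by 4.48, SK cells differed from FL HSC by -3.50 (2.47 against 5.97), and the difference of SK cells from WT-MPP was 0.98. Mean TPM put the last pair the other way round, at 29.2 in SK cells and 36.4 in WT-MPP, of which 6 held 100 or more and 31 less than 1. The share in WT-MPP rests on the detection threshold, since at any TPM above 0 Gfi1 was in 53.7% of WT-MPP and 55.3% of SK cells, beside 92.9% of FL HSC and 22.2% of BM HSC, while at a TPM of 10 or more it was in 14.6% of WT-MPP and 36.2% of SK cells.

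Gfi1b, a repressor needed for red cell and platelet formation, ran in the reverse order. BM HSC had a median TPM of 215 and a highest value of 1566, and 35 of 36 cells had it (97.2%, 85.5 to 99.9%). WT-MPP had a median of 4.35, reached 1592, and had 29 of 41 cells with it (70.7%, 54.5 to 83.9%). In SK cells the median was 1.10 and the highest value 472, detected in 24 of 47 cells (51.1%, 36.1 to 65.9%). FL HSC had a median of 0 and a highest value of 683, detected in 20 of 56 cells (35.7%, 23.4 to 49.6%). Every population held cells at 0 and cells at 472 TPM or more, and the values above 683 were all in BM HSC and WT-MPP. The interval of the share in BM HSC lay above the other 3, while SK cells overlapped both WT-MPP and FL HSC. In mean log2(TPM+1) FL HSC differed from BM HSC by -3.58 (2.47 against 6.05), and SK cells differed by -3.03 from BM HSC and by -1.15 from WT-MPP. Many of the BM HSC counted with Gfi1b held only a few TPM, and at a TPM of 10 or more the shares were 66.7% in BM HSC, 43.9% in WT-MPP, 36.2% in SK cells and 30.4% in FL HSC, in the same order.

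**Figure D1:**
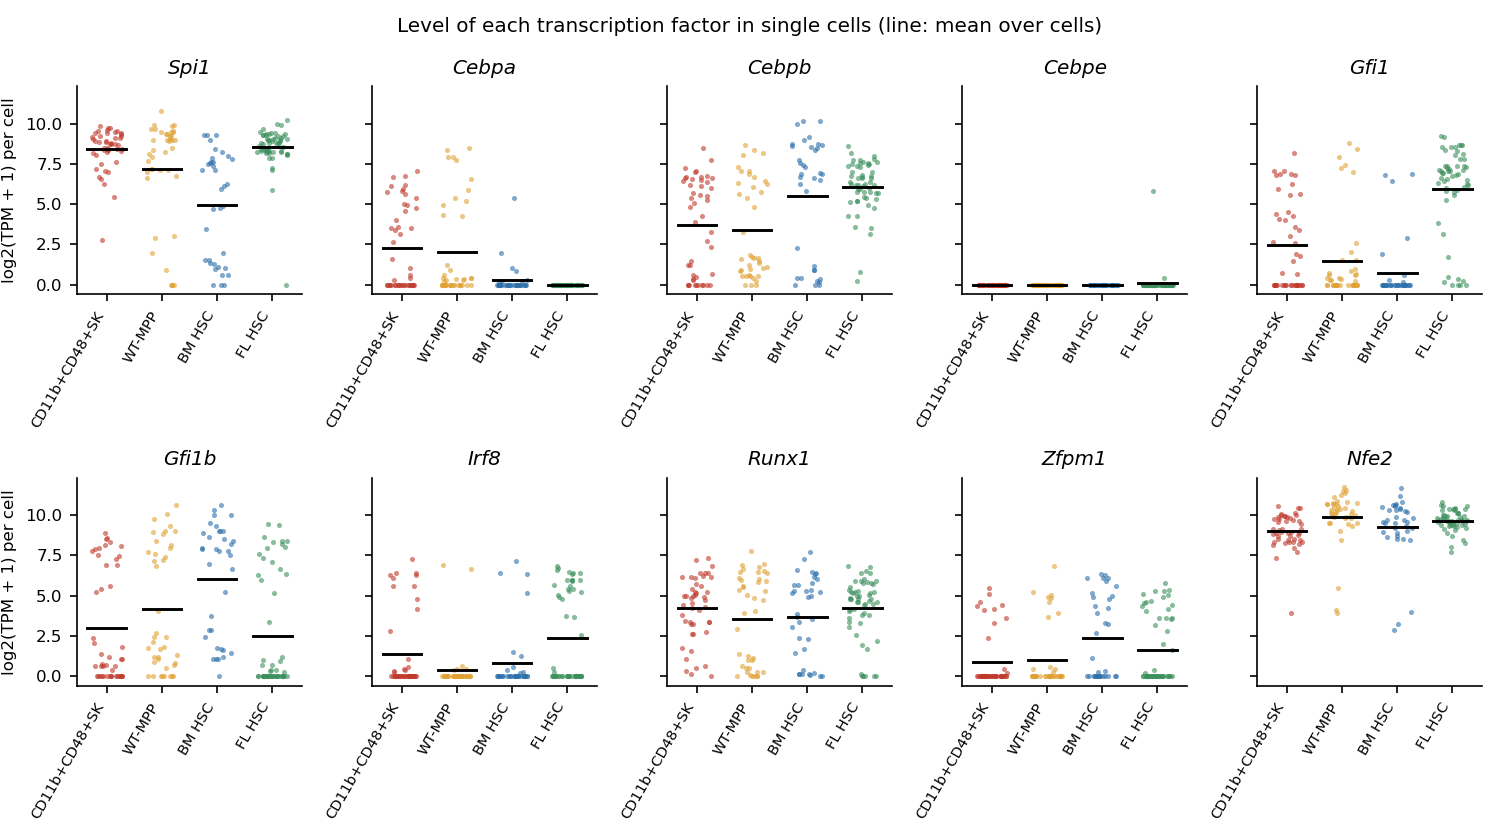
Level of each of the 10 genes per cell as log2(TPM+1) on the vertical axis, with each point 1 cell and the line the mean over the cells of a population. Gfi1 is high in most FL HSC and Gfi1b in most BM HSC, and Nfe2 forms a high band. Spi1 is high in most cells outside BM HSC, and Cebpa is at 0 in every FL HSC.

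Spi1, the ETS factor PU.1 that directs cells towards the myeloid and lymphoid fates, had the highest mean log2(TPM+1) of the myeloid members in SK cells, FL HSC and WT-MPP, while in BM HSC Cebpb stood above it (5.50 against 4.92). It was detected in 47 of 47 SK cells, with a lowest TPM of 5.92, a median of 428 and a highest of 913. FL HSC were similar, detected in 55 of 56 cells, a median of 436 and a highest value of 1173. WT-MPP had 36 of 41 cells with it, a median of 356 and a highest value of 1733. BM HSC stood lowest, detected in 30 of 36 cells, a median of 64.8 and a highest value of 616. At a TPM of 100 or more there were 54 FL HSC, 43 SK cells, 16 BM HSC and 32 WT-MPP, so the low Spi1 of BM HSC came with a wide spread in which high and low cells were both common. The difference in mean log2(TPM+1) from BM HSC was 3.48 for SK cells, 3.63 for FL HSC and 2.28 for WT-MPP, and SK cells differed from FL HSC by -0.15. SK cells exceeded WT-MPP by 1.20 on this scale, but their mean TPM was 432 against 419, and the difference was 0.66 among the 40 SK cells and 30 WT-MPP with 3500 to 5500 genes.

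Cebpa, the C/EBP factor that starts granulocyte development, was found in the SK and MPP cells and was listed at 0 in every FL HSC. Among SK cells 23 of 47 were detected (48.9%, 34.1 to 63.9%), with a median of 0.513 and a highest value of 131. Among WT-MPP 13 of 41 were (31.7%, 18.1 to 48.1%), with a median of 0.253 and a highest value of 360. Only 3 of 36 BM HSC were (8.33%, 1.75 to 22.5%), the highest at 41.6. The 0 of 56 FL HSC allow a share of up to 5.36%, in the population with the most genes per cell. More SK cells than WT-MPP held Cebpa at a TPM of 1 or more, with overlapping intervals, whereas at any TPM above 0 it was in 56.1% of WT-MPP against 55.3% of SK cells, and in 22.2% of BM HSC and still no FL HSC. In the cells where it was detected the median was 29.5 TPM in SK cells and 57.4 in WT-MPP. Accordingly the difference in mean log2(TPM+1) was 0.29 while mean TPM was 19.5 in SK cells and 41.2 in WT-MPP, and the 2 populations cannot be ordered. Against BM HSC the difference in mean log2(TPM+1) was 2.02 for SK cells and 1.73 for WT-MPP. In WT-MPP the cells with Cebpa also had more genes, a median of 4389 against 3669.5, and the part of that in the share was not tested.

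Cebpb, the family member used in emergency granulocyte production and in macrophages, behaved differently from Cebpa. It was detected in 54 of 56 FL HSC (96.4%, 87.7 to 99.6%), with a median TPM of 73.6 and a highest of 382. BM HSC had a higher median, 116, and a highest value of 1160, but 26 of 36 cells with it (72.2%, 54.8 to 85.8%). SK cells had a median of 27.5 and a highest value of 363, detected in 32 of 47 cells (68.1%, 52.9 to 80.9%). WT-MPP had a median of 2.15 and a highest value of 408, detected in 28 of 41 cells (68.3%, 51.9 to 81.9%). At any TPM above 0 the shares were 100% in FL HSC, 91.7% in BM HSC, 78.7% in SK cells and 92.7% in WT-MPP. FL HSC were therefore even and BM HSC split between cells near 0 and high cells, and which of the 2 was higher turned on the measure, 6.09 against 5.50 in mean log2(TPM+1) and 102 against 238 in mean TPM. In mean log2(TPM+1) SK cells differed by -2.37 from FL HSC, by -1.77 from BM HSC and by 0.34 from WT-MPP. Cebpe, which acts late in granulocyte maturation, was detected in a single cell, an FL HSC at 54.7 TPM with 6789 genes, the most of any FL HSC. Its 0 of 47 SK cells allow a share of up to 6.38%, and it did not pass the filter on low genes.

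Irf8, the factor of monocytes and dendritic cells, was sparse everywhere. Its median TPM was 0 in all 4 populations, and the highest value was 112 in FL HSC, 151 in SK cells, 140 in BM HSC and 116 in WT-MPP. The share of cells with it was 42.9% in FL HSC (24 of 56, 29.7 to 56.8%), 25.5% in SK cells (12 of 47, 13.9 to 40.4%), 16.7% in BM HSC (6 of 36, 6.37 to 32.8%) and 4.88% in WT-MPP (2 of 41, 0.596 to 16.5%). Neighbours in this order overlapped, and the intervals of FL HSC and WT-MPP did not. At any TPM above 0 the share in WT-MPP was 14.6%, and FL HSC stayed highest at 46.4%. In mean log2(TPM+1) FL HSC exceeded WT-MPP by 2.01 and BM HSC by 1.57, and the difference of SK cells from FL HSC was -1.01.

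Runx1 had the smallest range of mean log2(TPM+1) across the populations among the 9 members that passed the filter on low genes, 0.69. Its median TPM was 26.6 in FL HSC, 25.7 in SK cells, 21.4 in BM HSC and 25.5 in WT-MPP, and its highest values in the same order were 116, 158, 205 and 221. The number with it was 50 of 56, 42 of 47, 27 of 36 and 29 of 41 cells, with overlapping intervals for every pair (at any TPM above 0, between 87.8% and 97.9% in each population), and no pair of populations differed by 1 or more in mean log2(TPM+1). In BM HSC the 9 cells without Runx1 had fewer genes, a median of 3505 against 4646 in the 27 cells with it, and the part of gene number in the lower share was not tested.

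Nfe2, the subunit of NF-E2 that acts in platelet formation and globin expression, was detected in all 180 cells and was the most abundant member in each population. WT-MPP had the highest median TPM, 1196, between 14.1 and 3418. FL HSC had a median of 814 and were the most even, between 207 and 1828. BM HSC had a median of 798, between 6.17 and 3268, and SK cells a median of 501, between 14.1 and 1531. Among the genes that passed the filter on low genes, its mean log2(TPM+1) stood above 97.4% in SK cells and 99.2% in WT-MPP. The difference between these populations was -0.87.

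Zfpm1 was the least abundant erythroid member. BM HSC had 18 of 36 cells with it (interval 32.9 to 67.1%) with a highest TPM of 81.9, and FL HSC had 22 of 56 (39.3%, 26.5 to 53.2%) with a highest of 53.96. SK cells had 10 of 47 (21.3%, 10.7 to 35.7%) with a highest of 43.7, and WT-MPP had 8 of 41 (19.5%, 8.82 to 34.9%) with a highest of 114. The intervals of all 4 populations overlapped. In mean log2(TPM+1) SK cells differed from BM HSC by -1.49 (0.90 against 2.38), and by -1.71 among cells with 3500 to 5500 genes. Within BM HSC Zfpm1 moved with the number of genes per cell (Spearman's rho 0.54 over 36 cells), with a median of 4858 genes in cells with it and 3973.5 in cells without it.

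**Figure D2:**
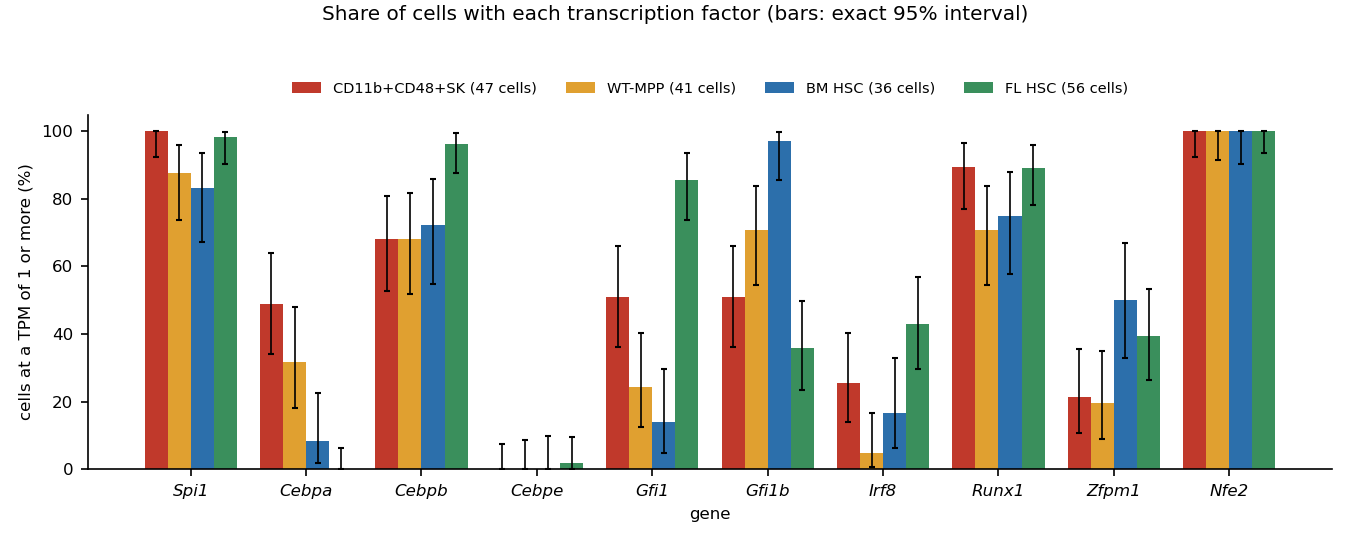
Share of cells of each population detected for each gene, in percent, with exact Clopper-Pearson 95% intervals as error bars. The shares of Gfi1 and Gfi1b are ordered in opposite ways, from 85.7% and 35.7% in FL HSC to 13.9% and 97.2% in BM HSC.

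Set against all genes, the members did not move in one direction. A difference of 1 or more in mean log2(TPM+1) was counted among the 10856 genes detected in 10% or more of the cells of any population, which include 9 of the 10 members. Comparisons that share a population share its cells, so their counts are not independent. In SK cells against WT-MPP 1 member was higher (Spi1) where 19% of genes were, and 1 was lower (Gfi1b) where 5.01% were. Gfi1 and Irf8 fell just short, at 0.98 and, before rounding, just under 1. Against BM HSC, SK cells had 3 members higher (Spi1, Cebpa and Gfi1; 13.4% of genes) and 3 lower (Cebpb, Gfi1b and Zfpm1; 11.8% of genes). Against FL HSC they had 1 member higher (Cebpa; 4.02% of genes) and 3 lower (Cebpb, Gfi1 and Irf8; 20.9% of genes). FL HSC had 3 members above BM HSC (Spi1, Gfi1 and Irf8; 25.6% of genes) and 1 below (Gfi1b; 5.44% of genes). Against WT-MPP, FL HSC had 4 members higher (Spi1, Cebpb, Gfi1 and Irf8; 33.9% of genes) and 2 lower (Cebpa and Gfi1b; 3.08% of genes). Between WT-MPP and BM HSC 5 members differed by 1 or more (Spi1 and Cebpa higher in WT-MPP, Cebpb, Gfi1b and Zfpm1 lower), where 17.2% of genes differed in either direction. Among cells with 3500 to 5500 genes Spi1 no longer reached 1 against WT-MPP, at 0.66 in SK cells and 0.64 in FL HSC. On the log2 of the mean TPM plus 1 the same 2 differences were 0.05 and 0.13, and Cebpb in FL HSC against WT-MPP (0.77) and in SK cells against FL HSC (-0.99), Irf8 in SK cells against FL HSC (-0.67) and Gfi1b in WT-MPP against BM HSC (-0.68) also fell below 1 in size. With 9 members these shares are coarse, and counts such as 3 of 9 beside 25.6% of genes are near the background.

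**Figure D3:**
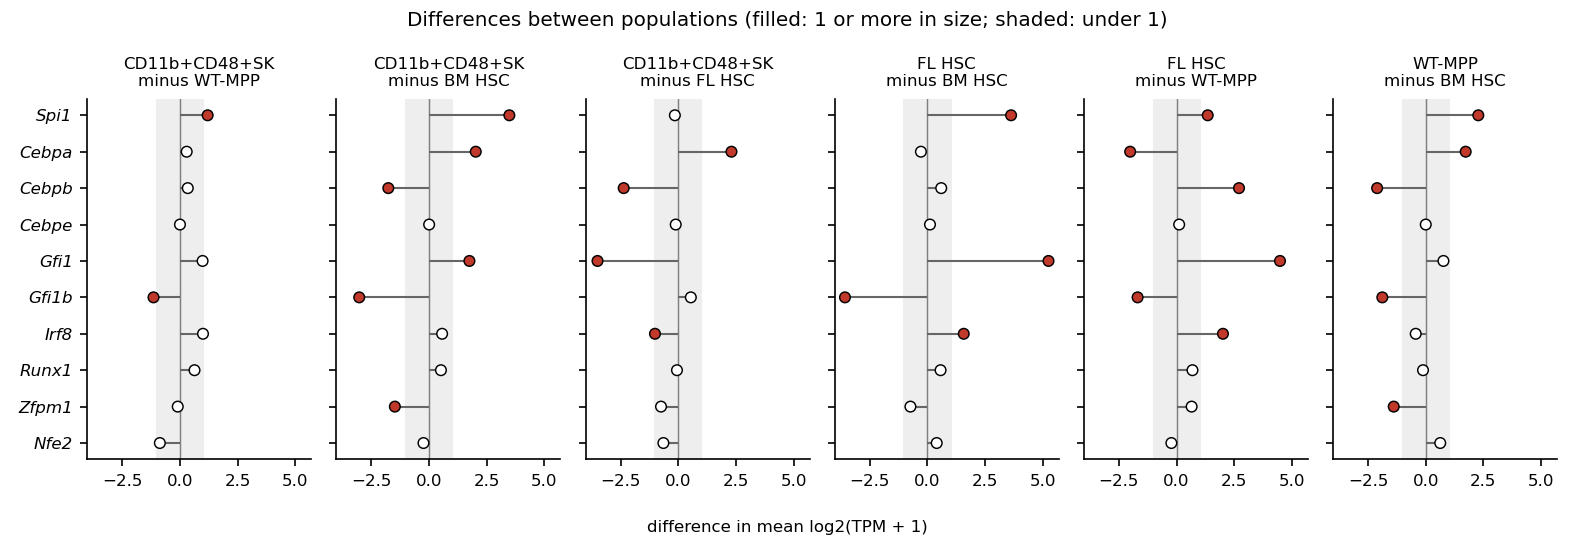
Difference in mean log2(TPM+1) of each gene for the 6 pairs of populations, with filled points at 1 or more in size and the range under 1 shaded. The differences run from -3.58 for Gfi1b to 5.25 for Gfi1, both in FL HSC minus BM HSC.

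In single cells, factors of both fates were commonly held together. Spi1 and Nfe2 were both detected in 55 of 56 FL HSC, 47 of 47 SK cells, 30 of 36 BM HSC and 36 of 41 WT-MPP. These counts are those of Spi1 itself, because Nfe2 was detected in every cell. Over all cells Nfe2 was usually above Spi1, in 49 of 56 FL HSC, 35 of 36 BM HSC and 37 of 41 WT-MPP, while among the 47 SK cells Nfe2 was above in 29 and Spi1 in 18. Spi1 and Gfi1b, held together in 20 FL HSC, 24 SK cells, 29 BM HSC and 25 WT-MPP, stood in a different order in BM HSC, where Gfi1b exceeded Spi1 in 24 of 36 cells, than in SK cells and FL HSC, where it did so in 1 of 47 and 3 of 56. Cebpa and Gfi1b shared 12 of 47 SK cells (25.5%, 13.9 to 40.4%) and 8 of 41 WT-MPP (19.5%, 8.82 to 34.9%). Gfi1b was present in 12 of the 23 SK cells with Cebpa and in 12 of the 24 without it, with rho close to 0. In WT-MPP it was in 61.5% of the 13 cells with Cebpa and 75% of the 28 without it, with rho of -0.31 over 41 cells.

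The 6 myeloid members (Spi1, Cebpa, Cebpb, Cebpe, Gfi1 and Irf8) were counted per cell. At least 3 of them were detected in 52 of 56 FL HSC, 31 of 47 SK cells, 7 of 36 BM HSC and 16 of 41 WT-MPP. The 4 cells with 5 of them were SK cells, and these were also the 4 cells with Cebpa, Gfi1 and Irf8 together in that population. One WT-MPP held the same 3 genes and no BM HSC or FL HSC did. All 3 erythroid and megakaryocytic members (Gfi1b, Zfpm1 and Nfe2) were together in 18 of 36 BM HSC and in 5 cells of each other population.

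**Figure D4:**
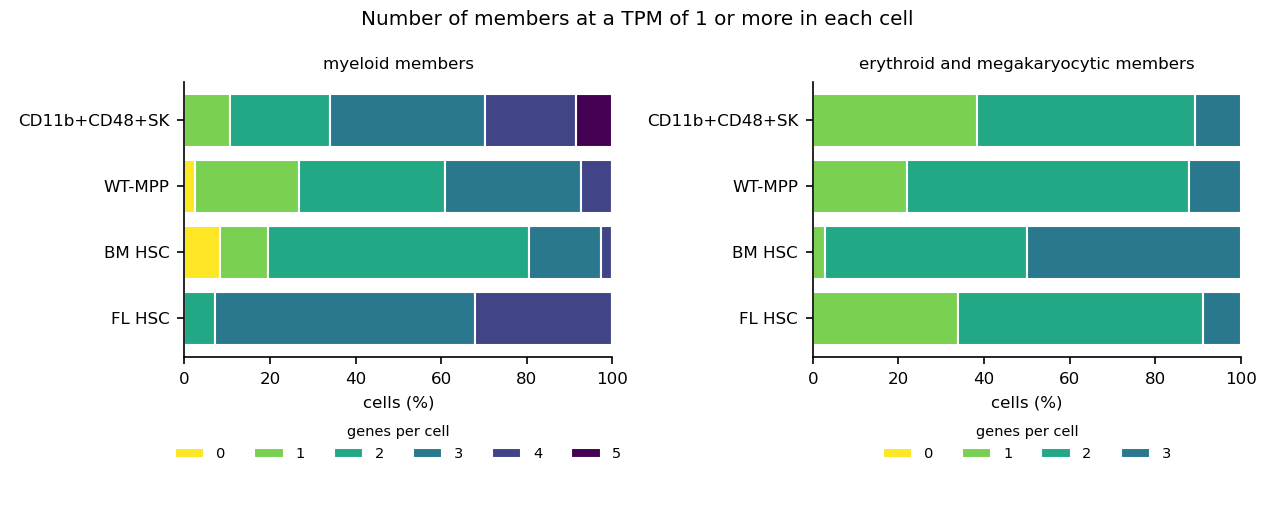
Share of the cells of each population, in percent, that held each number of myeloid members (left, 6 genes) and of erythroid and megakaryocytic members (right, 3 genes) detected. FL HSC mostly held 3 or 4 myeloid members and BM HSC 2, while 18 of 36 BM HSC held all 3 erythroid and megakaryocytic members.

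Gfi1 and Irf8 were seldom absent together in FL HSC. Irf8 was detected in 17 of the 48 FL HSC with Gfi1 (35.4%) and in 7 of the 8 without it (87.5%), and 1 FL HSC held neither. FL HSC with Irf8 had a median Gfi1 TPM of 60.2, against 151.7 in those without it, and Spearman's rho between the 2 genes was -0.53 over 56 cells. This was the strongest of the correlations among the 14 pairs examined in the 4 populations, was noticed among them, and is given as a description. It was -0.58 among the 39 FL HSC with 3500 to 5500 genes, where Irf8 was in 11 of 34 cells with Gfi1 and 5 of 5 without it. Other thresholds were added after the data were seen. At a TPM of 10 or more, Irf8 was in 17 of 46 FL HSC with Gfi1 and 6 of 10 without it. At any TPM above 0 it was in 23 of 52 with Gfi1 and in 3 of only 4 without it. Among SK cells Irf8 was in 6 of 24 with Gfi1 and 6 of 23 without it, and rho was between -0.08 and 0.17 in the 3 populations other than FL HSC. Whether the relation differs between populations was not tested, and Irf8 was too rare in WT-MPP and BM HSC to show one.

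Gfi1 and Gfi1b were found in the same cells in every population, although their levels ran in opposite orders across populations. Both were detected in 17 of 56 FL HSC, 11 of 47 SK cells, 5 of 36 BM HSC and 6 of 41 WT-MPP. Gfi1b was in 45.8% of SK cells with Gfi1 and 56.5% of those without it, and in FL HSC these shares were 35.4% and 37.5%. In SK cells Irf8 stood in 9 of the 23 cells with Cebpa and 3 of the 24 without it, and Cebpb in 19 of 23 and 13 of 24, with rho of 0.15 and 0.18 over 47 cells.

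**Figure D5:**
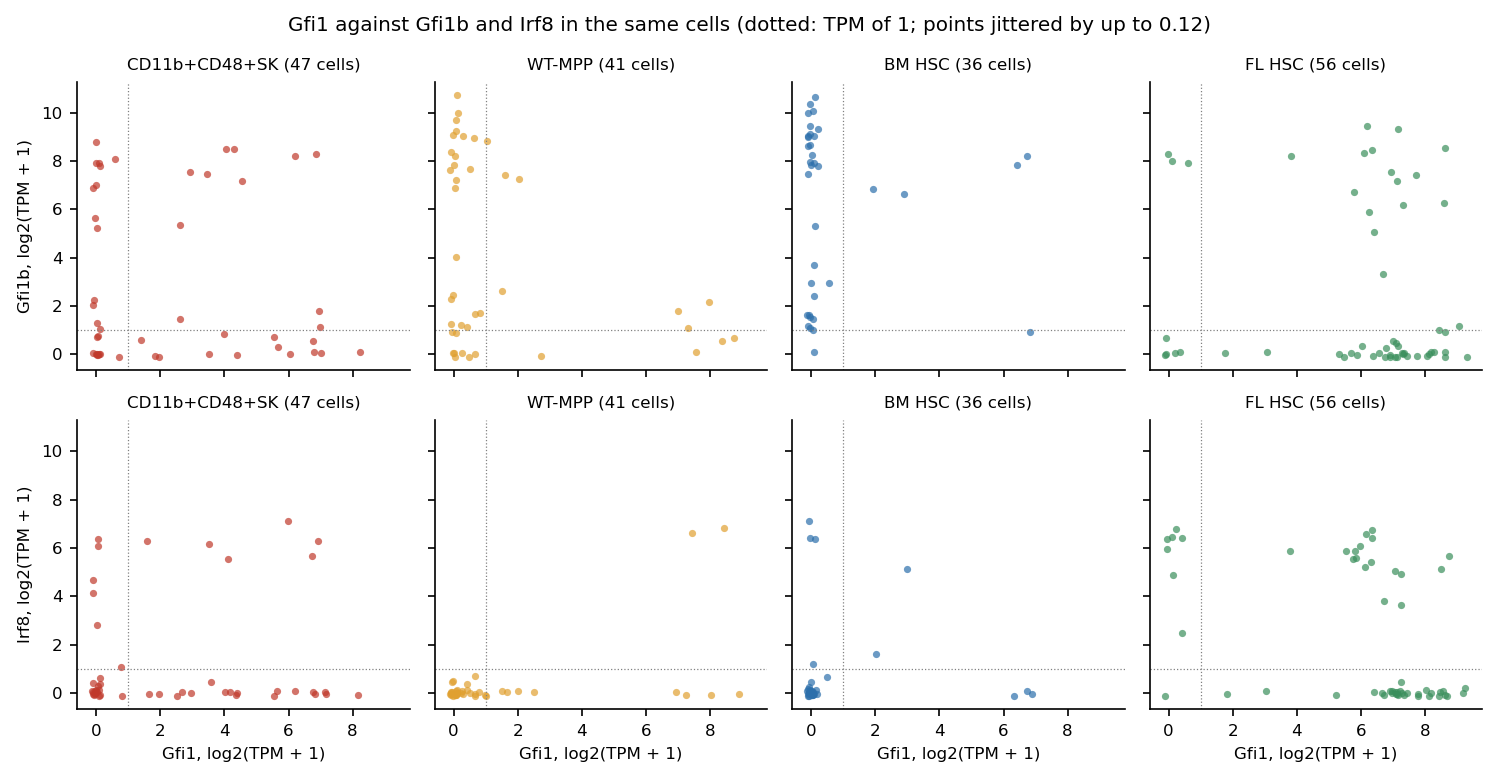
Gfi1 (horizontal axis) against Gfi1b (upper row) and Irf8 (lower row) in the same cells, both as log2(TPM+1), with 1 panel a population and dotted lines at a TPM of 1. In FL HSC the cells without Gfi1 mostly hold Irf8, 7 of 8, whereas Gfi1 and Gfi1b occur together in 17 of 56.

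The genes that these factors act on were followed by lists. Of 22 listed granulocyte and monocyte genes, 17 passed the filter, and 6 were higher and 1 lower in SK cells than in WT-MPP, where 19% of all genes were higher and 5.01% lower, with a median difference of 0.92 beside 0.21 over all genes. The highest were Cst7 (8.19, cystatin F), Ccl9 (5.65, a chemokine) and Mpo (5.49, myeloperoxidase of neutrophil granules), which reached 97.9%, 100% and 91.5% of SK cells and 2.44%, 24.4% and 9.76% of WT-MPP. Prtn3, the granule protease proteinase 3, was the 1 lower gene, at -1.25. The list holds Itgam, which encodes the CD11b used in the sort. In FL HSC against BM HSC 4 of 17 were higher, no more than the 25.6% of all genes, and none were lower, where 5.44% of all genes were. They were led by Csf3r (1.80, the G-CSF receptor), Ccl9 (1.77) and Igsf6 (1.62), and the median was 0.51 beside 0.31. The median number of these genes per SK cell was 9 both in the 23 cells with Cebpa and in the 24 without it, and it was also 9 with and without Cebpb. It was 9 against 8 for Gfi1b and for Irf8, 8.5 against 9 for Gfi1 and 8 against 9 for Zfpm1, and none of these medians differed by more than 1 gene.

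Of 21 listed erythroid and megakaryocytic genes 15 passed the filter. In SK cells 9 were lower than in BM HSC (11.8% of all genes) and none higher (13.4%), with a median of -1.51 beside a median close to 0 over all genes, and those lower than in WT-MPP included Car2 (-2.57, carbonic anhydrase 2) and Pf4 (-1.24, platelet factor 4). In FL HSC 6 were lower (5.44% of all genes) and 2 higher (25.6%) than in BM HSC, the highest being Hbb-b1 (7.49, beta globin) and Epor (1.34, the erythropoietin receptor), and the lowest F2r (-2.06), Slc14a1 (-1.45) and Itga2b (-1.44). The median number of these genes per SK cell was 5 with Gfi1b and 3 without it. Some members of the myeloid fate ran the same way, with 4.5 against 3 for Cebpb and 5 against 4 for Cebpa and Irf8. It was 5 against 4 for Zfpm1 and ran the other way for Gfi1, at 3 against 5. In FL HSC it was 8 with Gfi1b and 6.5 without it, and in WT-MPP it was 5 in both. Over all genes, SK cells with Gfi1b had fewer detected than those without it, with medians of 4365.5 and 4585. Those with Cebpb (4548 and 4341), Cebpa (4567 and 4347) and Irf8 (4569.5 and 4458) had more. The part of gene number was not tested.

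Among 34 related and partner transcription factors that passed, 3 were higher and 6 lower in SK cells than in WT-MPP, beside 19% and 5.01% of all genes, and the median was 0.14 beside 0.21. Runx3 (1.91), Cbfb (1.07, the partner of the RUNX proteins) and Cebpd (in 31.9% of cells against 12.2%) were highest, and Egr1 (-2.98, an immediate early gene), Nfe2l2 (-1.42) and Myb (-1.24) lowest. In FL HSC 3 were higher and 9 lower than in BM HSC, beside 25.6% and 5.44% of all genes, and the median was -0.40 beside 0.31. FL HSC differed from BM HSC most in Egr1 (-6.07), Irf2 (-1.95) and Mafk (-1.90, a small MAF protein that pairs with Nfe2), and in Id1 (2.21), Id3 (1.79) and Cebpd (1.55). Of the 20 corepressor genes that Gfi1, Gfi1b or Zfpm1 proteins are known to recruit, 6 were higher and 1 lower in SK cells than in WT-MPP (19% and 5.01% of all genes), with a median of 0.55 beside 0.21. In FL HSC 8 were higher and 1 lower than in BM HSC (25.6% and 5.44% of all genes), with a median of 0.79 beside 0.31. Mta3 (3.08), Mbd3 (in 74.5% of cells against 53.7%) and Hdac2 (97.9% against 80.5%) led the first comparison, and Mbd3 (2.24), Hdac1 (2.19) and Hmg20b (1.95) the second. Rcor1, the CoREST scaffold, was lower in both, at -1.09 and -1.31.

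The genes most like each member were sought over all 180 cells after the mean of each population was subtracted, among 7514 genes detected in 20% or more of the cells. Nfe2 was most like Hsp90ab1 (Pearson's r 0.59), Lmo2 (0.59) and Limd2 (0.58), and its r with the number of genes per cell was 0.22. Lmo2 is the bridging protein of the blood stem cell SCL complex. Spi1 was most like Pgam1 (0.40), Atp5d (0.39) and Lcp1 (0.37). For the other members the highest r was between 0.28 and 0.37, with BC035044 for Cebpa, Dda1 for Cebpb, Jam3 for Gfi1, Tmem71 for Gfi1b, Arl6ip6 for Irf8, Hdac3 for Runx1 and Derl1 for Zfpm1, and correlations this low among sparse values are not findings. Between members r ran from -0.15 (Gfi1 and Gfi1b) to 0.27 (Spi1 and Nfe2).

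Markers of other and mature cells were counted beside these levels. Of 4 listed mature neutrophil markers 2 were seen in any SK cell (S100a8 in 10.6%, S100a9 in 4.26%), with Camp and Ltf at 0, and their summed TPM ran from 0 through a median of 0 to 536. In FL HSC 1 of the 4 was seen (Ltf, 10.7%). Of 6 monocyte or macrophage markers 1 was seen in any SK cell (Ly6c2, 2.13%), with Csf1r, Ccr2, Cd14, Fcgr1 and Adgre1 at 0. FL HSC held 4 of the 6, with Fcgr1 in 12.5% and Csf1r in 8.93%. Of 6 mast cell or basophil markers 5 were seen in SK cells and in BM HSC and 3 in WT-MPP and FL HSC. Their summed TPM was highest in SK cells, from 0 through 144 to 9248, against medians of 0.388 in BM HSC and 0 in the other populations. This came with Cpa3, in 87.2% of SK cells and 13.9% of BM HSC, Mcpt8 (36.2% and 2.78%) and Ms4a2 (10.6% and 0%), while Cma1 (0% and 16.7%) and Gzmb (2.13% and 16.7%) ran the other way and Hdc was most frequent in FL HSC (17.9%, against 8.51% of SK cells). All 4 erythroid markers were seen in FL HSC. Their summed TPM there ran from 31.7 through a median of 1004 to 4955, against a median of 1.15 in BM HSC. Hbb-b1, with a mean TPM of 1426 in FL HSC, was in 98.2% of FL HSC and 38.9% of BM HSC, and Epor in 41.1% and 19.4%. The other markers of the list were not highest in FL HSC. Klf1 was in 3.57% of FL HSC and 6.38% of SK cells, and Hba-a1 in 1.79% of FL HSC and 2.44% of WT-MPP. Megakaryocyte markers had a higher summed TPM in both HSC populations, with a median of 230.4 in BM HSC (range 0.689 to 1567; 7 of 7 seen) and 178 in FL HSC (0 to 1833; 6 of 7), against 2.43 in SK cells (0 to 390; 5 of 7) and 2.57 in WT-MPP (0 to 1003; 6 of 7). Gp9 was in 83.3% of BM HSC, 80.4% of FL HSC, 25.5% of SK cells and 41.5% of WT-MPP, Vwf in 41.7%, 26.8%, 2.13% and 0%, and Itga2b in 36.1%, 16.1%, 12.8% and 9.76%. Other members of the list did not follow this order, with Pf4 in 30.6% of BM HSC and 41.5% of WT-MPP, Treml1 in 5.56% of BM HSC and 14.9% of SK cells, and Ppbp in 5.56% of BM HSC and 7.32% of WT-MPP. Gfi1b and Zfpm1 stood highest in BM HSC, and Gfi1b stood lowest in FL HSC. The part of these markers in the levels of the 10 genes was not tested.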

How the data were processed

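Single-cell libraries were made from amplified cDNA of sorted cells. Reads were aligned by the authors in HISAT2 2.1.0, and StringTie 1.3.4 gave the TPM values that were deposited. The submitters' processing notes also name SAMtools 0.1.19 and the build mm10. Of 181 columns 1 has no sample and was not used. Symbols were matched to RefSeq (GRCm38.p6), which gave Spi1 its older symbol.

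The mean of log2(TPM+1) was taken over cells (Python 3.11.15; pandas 2.3.3, numpy 2.4.6, scipy 1.17.1, matplotlib 3.10.9). A gene counted as detected from a TPM of 1, and genes detected in 10% or more of the cells of any population were kept. The arithmetic of the differences and of the scaling was checked on WT-MPP cells whose values were changed by known amounts. The other calculations had no such check. With 1 sample per population no test was made. The pseudocount, averaging, scaling, detection threshold, filter and range of genes per cell were varied. The genes named are the 10 members, the 3 genes of largest difference at each end of each list in 2 comparisons (printed where they reached 1), the genes most like each member, and cell type markers. The members, lists and pairs were chosen with earlier results of these data known. Protein sequences were not used here, and one gene that the rule names is not reported here.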

Additional observations from a re-analysis of the deposited data

How the results depend on the processing

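The number of members that differed by 1 or more stayed within 1.5 times the reported one for all 6 comparisons when cells were scaled by their median ratio, kept at 3500 to 5500 genes, or left with every gene unfiltered. The members counted were not always the same, with Gfi1 in place of Spi1 for SK cells against WT-MPP among cells with 3500 to 5500 genes. With a pseudocount of 10 the number fell to 0 for SK cells against WT-MPP, 3 against BM HSC and 2 against FL HSC, to 2 for FL HSC against WT-MPP and 3 for WT-MPP against BM HSC. With a pseudocount of 0.1 it rose to 5 for SK cells against WT-MPP. Taken on the log2 of the mean TPM it was 4 for that comparison, 2 for SK cells against FL HSC and 7 for FL HSC against BM HSC. These settings weigh low values differently by construction, and the share of all genes that differed by 1 or more also depended on them. For SK cells against WT-MPP the share was 24.02%, beside 8.53% with a pseudocount of 10 and 39.97% with 0.1. On the log2 of the mean TPM it was 34.38%. That measure changed the share less for SK cells against FL HSC (24.95% to 27.7%). For FL HSC against BM HSC it went from 31.01% to 31.14%, although the number of members moved. No difference of 1 or more changed sign under the alternatives tried. Differences under 1 did change, and Cebpa in SK cells against WT-MPP went from 0.29 to -1.04 on the log2 of the mean TPM. No paired analysis was possible because the numbers that cells share across populations only name cells and no animal is given. No replicate could be left out, since each population is 1 sample. The unknown depth per cell limits every value near 0.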
